A study of Homo sapiens with 48 samples.

Results

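The ZFAND genes encode a family of small proteins with a zinc finger of the AN1 type, several of which bind ubiquitin, the proteasome or both. Their members here were the rows of the deposited count matrix with the symbols ZFAND1, ZFAND2A, ZFAND2B, ZFAND3, ZFAND4, ZFAND5 and ZFAND6, which are 7 genes of 33892 rows with 1 row each. Counts came from 48 RNA libraries of 8 established human cancer cell lines, treated for 24 h with DMSO alone or with carfilzomib, which blocks the proteasome irreversibly. Each line had 3 carfilzomib and 3 DMSO cultures, named as biological triplicates in the design text, which gives 16 groups. The colon lines were RKO and DLD-1, the lung lines H-23 and H-1299, the pancreatic lines PANC-1 and CAPAN-2, and the multiple myeloma lines H-929 and RPMI. The dose was set in each line at the IC50 of proteasome activity, so equal dosing in molar terms is not implied, and the doses themselves are not used here. Library totals ran from 9116329 to 64369098 counts, and the H-929 libraries, at 9116329 to 18857059 counts, were the smallest on average. The p-values below measure the spread between the triplicate cultures of 1 line and not the spread between tumours.

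The proteasome degrades proteins that carry ubiquitin chains, and ZFAND proteins are among the factors that bring substrates to it or change its activity. ZFAND2A (also called AIRAP) was found as a protein induced by arsenite that attaches to the proteasome, and it is a known target of the heat shock transcription factor HSF1. ZFAND2B (AIRAPL) is its close relative, expressed without stress and anchored to membranes of the endoplasmic reticulum. ZFAND1 recruits the proteasome and the segregase VCP to stress granules formed under arsenite. ZFAND5 and ZFAND6 carry a ubiquitin-binding A20 finger beside the AN1 finger; ZFAND5 stimulates the proteasome and rises in wasting muscle, and ZFAND6 (AWP1) has been tied to TRAF signalling and to peroxisomal import. ZFAND3 has the same pair of fingers and is less well studied, and ZFAND4 joins a ubiquitin-like domain to an AN1 finger.

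All levels per line below are CPM, counts scaled to a library total of 1000000, after correction within the line with TMM. TMM is a method that allows for differences in composition. The marker levels in this paragraph are the exception, since TMM was applied there over all 48 libraries together. A gene was called in a line when the quasi-likelihood F test of edgeR gave a Benjamini-Hochberg adjusted p under 0.05 over all genes tested there. In the myeloma lines all 7 plasma cell markers exceeded 1 CPM, and their summed level under carfilzomib was 5403 to 5749.8 CPM against 11575 to 12447 under DMSO in H-929, and 1474 to 1797 against 5958 to 6916 in RPMI. Whether that fall of the marker sum took part in the myeloma results was not tested. All 5 epithelial markers exceeded 1 CPM in DLD-1, H-23, PANC-1 and CAPAN-2, but only 3 did in RKO and 2 in H-1299, and neither SFTPB nor NAPSA, lung epithelial genes, reached 1 CPM in H-1299. Under DMSO 1 of 4 intestinal markers exceeded 1 CPM in RKO and 3 in DLD-1. All 4 pancreatic ductal markers did in PANC-1 and 3 in CAPAN-2, but 4 also did in H-23 and 3 in DLD-1. Some markers were present where the label does not lead to them: under DMSO NAPSA stood at 41.8 CPM and the T cell gene CD3E at 21.9 CPM in H-929, and EPCAM at 118 CPM and KRT18 at 103 CPM, both epithelial, in RPMI. The carcinoma lines had such markers too, with the fibroblast gene COL3A1 at 152 CPM in PANC-1 and the leukocyte gene LYZ at 12.1 CPM in CAPAN-2. In bulk RNA of this kind, fewer cells of a type and less RNA per cell cannot be told apart.

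At least 1 ZFAND gene was called in 7 of the 8 lines, more often higher than lower under carfilzomib and in unequal measure between members. Of 56 pairs of a gene and a line, 54 could be tested, and 27 were called higher, 6 lower and 21 were not called. These are 50% higher and 11.1% lower, where 20.8% and 21.1% of the tests of all genes over the 8 lines were called. ZFAND2A and ZFAND5 were each called higher in 6 of 8 lines and lower in none. ZFAND3 was higher in 5 lines and lower in 1, ZFAND6 higher in 4 and lower in 1, ZFAND1 higher in 3 and lower in 2, ZFAND2B higher in 2 and lower in 2, and ZFAND4 higher in 1 of the 6 lines where it was tested.

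The lines differed in how many members were called. In RKO 0 of 6 tested members were called by edgeR, where 3.62% of all genes were called higher and 5.28% lower; the lowest adjusted p of a member there was 0.401. Of all genes called in RKO 40.6% were higher, or 60.9% with library totals in place of TMM, and in DLD-1 47.5% or 60.3%; the member calls of both lines were alike under that scaling. In DLD-1 1 member was higher and 2 were lower of 7, against 10.9% and 12.1% of all genes, so that the 1 rise is near the background. H-23 had 4 higher and 1 lower of 7, against 17.7% and 16.2%, and H-1299 had 6 higher and 1 lower, against 29.8% and 31.3%. In PANC-1 2 of 7 were higher and 0 lower, beside 20.5% and 18.2% of all genes, which is little above that background. CAPAN-2 had 5 of 7 higher and 0 lower, against 25.7% and 26.7%. H-929 had 4 higher and 2 lower of 7, against 26.4% and 26.2%, and RPMI had 5 of 6 higher and 0 lower, against 31.3% and 32.2%. For the 5 counts of 0 in these lines, 1 member (ZFAND4, lower in PANC-1) had an unadjusted edgeR p under 0.05 and DESeq2 called 0. The median log2 fold change of the tested members was highest in RPMI, at 1.28, then 0.48 in CAPAN-2, 0.44 in H-1299 and 0.43 in H-929. It was 0.20 in H-23, 0.05 in DLD-1, -0.00 in PANC-1 and -0.03 in RKO, while the median over all genes lay between -0.02 and 0.03 in every line.

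**Figure D1:**
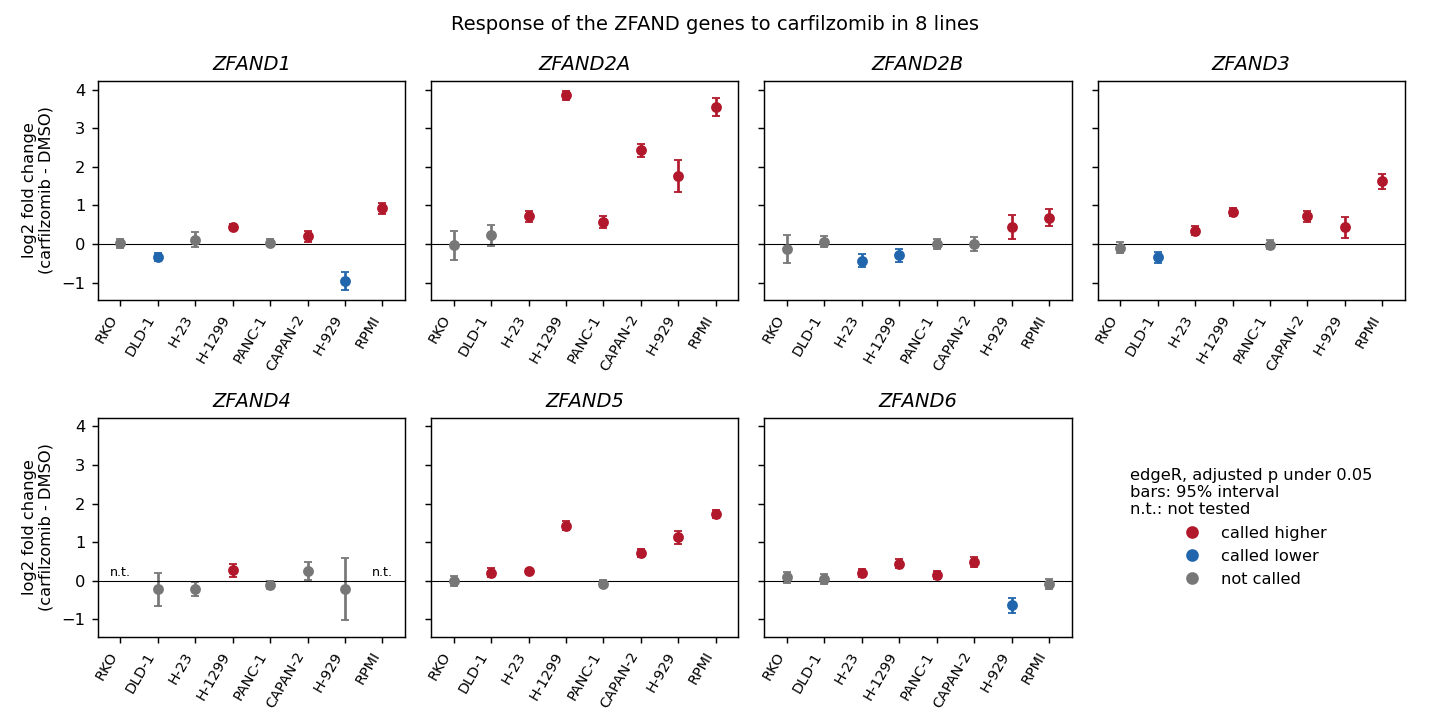
Log2 fold change of each ZFAND gene, carfilzomib minus DMSO, in the 8 lines (x axis), 1 panel a gene, with 95% intervals from edgeR; red points were called higher, blue lower, grey not called, and ZFAND4 was not tested (n.t.) in RKO and RPMI. ZFAND2A reaches 3.85 in H-1299 and 3.55 in RPMI, ZFAND5 reaches 1.74 in RPMI, and ZFAND1 and ZFAND6 lie below 0 in H-929, at -0.95 and -0.64.

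ZFAND2A is a gene of 7 exon blocks on the minus strand of chr7:1152071-1160759 (GENCODE release 29, GRCh38) and showed the largest rises of the family. Its promoter window is printed here, 250 bases before to 50 bases after the start in RefSeq (GRCh38.p14), beside those of ZFAND5, which was called higher in as many lines, and ZFAND2B, its relative, whose log2 fold change was at most 0.68 in size. Each is written 5′ to 3′ on the gene's strand, and capitals mark the motif matches described below.

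ZFAND2A: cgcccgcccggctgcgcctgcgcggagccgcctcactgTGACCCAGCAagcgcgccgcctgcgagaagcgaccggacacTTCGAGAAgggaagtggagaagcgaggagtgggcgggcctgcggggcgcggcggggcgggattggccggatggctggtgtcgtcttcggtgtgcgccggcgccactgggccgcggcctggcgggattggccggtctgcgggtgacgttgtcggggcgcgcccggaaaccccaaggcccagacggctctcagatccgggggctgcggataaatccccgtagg

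ZFAND5: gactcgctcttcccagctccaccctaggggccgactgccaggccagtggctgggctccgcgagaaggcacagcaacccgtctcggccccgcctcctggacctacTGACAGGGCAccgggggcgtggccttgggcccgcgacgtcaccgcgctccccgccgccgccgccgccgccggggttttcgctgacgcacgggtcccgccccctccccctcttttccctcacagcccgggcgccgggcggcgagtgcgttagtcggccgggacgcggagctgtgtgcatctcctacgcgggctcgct

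ZFAND2B: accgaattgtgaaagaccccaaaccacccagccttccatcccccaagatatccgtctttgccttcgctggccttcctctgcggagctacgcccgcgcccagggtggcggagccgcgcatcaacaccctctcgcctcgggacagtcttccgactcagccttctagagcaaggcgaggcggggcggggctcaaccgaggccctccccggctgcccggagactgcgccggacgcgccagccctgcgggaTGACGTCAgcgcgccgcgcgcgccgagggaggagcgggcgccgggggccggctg

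These windows lie at chr7:1160147-1160446 on the minus strand, at chr9:72365159-72365458 on the minus strand, and at chr2:219206532-219206831 on the plus strand. In that of ZFAND2A, TTCGAGAA stands at bases -171 to -164 from the start, a match to the heat shock element pair TTCNNGAA that 7.74% of 35116 RefSeq promoter windows hold. The same window holds TGACCCAGCA at -212 to -203, a match to the antioxidant response element (TGAC, any 3 bases, then GCA), which 3.18% of windows hold, and the ZFAND5 window holds TGACAGGGCA, another match to it, at -146 to -137. The ZFAND2B window holds TGACGTCA, the cAMP response element, at -4 to 4, as do 1.85% of windows. Both strands were searched in the 14 RefSeq windows of 6 members, and no other window held any of the motifs. ZFAND5 has further RefSeq windows beside the printed one, at chr9:72364507-72364806 and chr9:72364543-72364842, and these held no match. Neither GAANNTTC, the other arrangement of a heat shock element pair, nor that pair followed by any 2 bases and GAA, nor TTGCATCA was in a window of a member, against 6.77%, 0.49% and 0.866% of all windows. A match describes letters in a window and shows no binding.

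In H-1299 ZFAND2A stood at 14.8, 13.7 and 14.8 CPM in the DMSO libraries and at 215, 207 and 205 CPM in the carfilzomib libraries. The groups were far apart, with a fold change of 14.5 (log2 3.85 ± 0.052 SE, n = 3 against 3; edgeR, Benjamini-Hochberg adjusted p = 1.86e-13). By log2 fold change the gene ranked 18 of the 16500 tested in H-1299, 110 of 16931 in CAPAN-2, 157 of 14995 in RPMI, 642 of 18042 in H-23, 1011 of 16725 in PANC-1 and 1396 of 15682 in H-929. RPMI was similar, with 13.2, 14.8 and 13.1 CPM under DMSO and 139, 152 and 191 CPM under carfilzomib. The RPMI groups did not overlap either, although the carfilzomib libraries spread more widely, and the fold change was 11.7 (log2 3.55 ± 0.11 SE; edgeR adjusted p = 2.06e-11). In CAPAN-2 the gene went from 17.1, 17.7 and 15.4 CPM to 96.4, 84.8 and 86.9 CPM, a fold change of 5.36 with no overlap (edgeR adjusted p = 1.24e-11).

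The level of ZFAND2A under DMSO was lowest in H-929, where it stood at 4.97, 6.56 and 6.95 CPM, against 19.7, 19.5 and 23.5 CPM under carfilzomib. These groups also lay apart, and the fold change of 3.39 (log2 1.76 ± 0.19 SE) had the widest error of any called change of this gene. A rise of that size was not rare in H-929, where 15.96% of all genes were called and at least 2-fold higher. The 95th percentile of the log2 fold changes there was 2.59. In H-23 it rose from 22.3, 18.8 and 21.8 CPM to 35.8, 35.6 and 32.8 CPM, and in PANC-1 from 12.2, 12.9 and 11.6 CPM to 18.5, 17.8 and 18.3 CPM. These were rises of 1.65-fold and 1.49-fold with no overlap between the treatments (edgeR adjusted p = 2.52e-06 and 2.87e-05). The colon lines gave no call. In DLD-1 the DMSO libraries held 9.99, 10.2 and 11.9 CPM and the carfilzomib libraries 14.7, 11.4 and 11.2 CPM, which overlap (log2 0.22, 95% interval -0.05 to 0.49). In RKO they held 9.29, 8.42 and 8.59 CPM against 10.1, 7.70 and 7.75 CPM, with an interval of -0.42 to 0.34 that leaves room for a change of either sign.

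**Figure D2:**
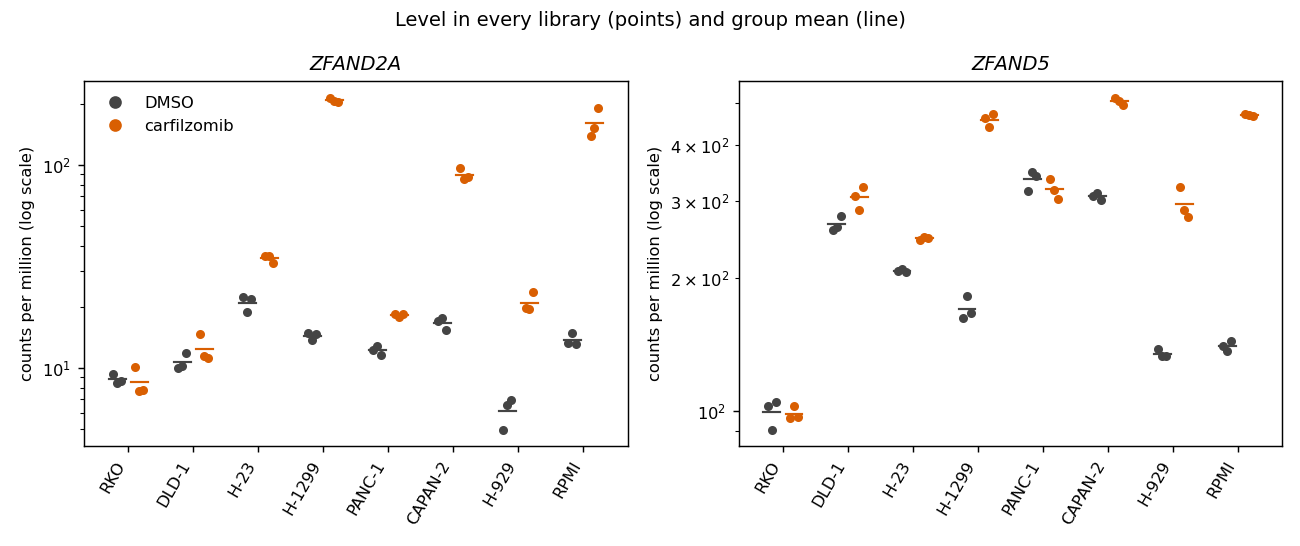
CPM of ZFAND2A (left) and ZFAND5 (right) in every library, on a log scale, for DMSO (grey) and carfilzomib (orange) in the 8 lines on the x axis; the short line is the group mean. The carfilzomib libraries of ZFAND2A sit at 205 to 215 CPM in H-1299 and 139 to 191 CPM in RPMI, clear of the DMSO libraries, while in RKO the treatments overlap for both genes.

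ZFAND5, the proteasome-stimulating member (chr9:72351425-72365235, minus strand), rose in as many lines as ZFAND2A, by smaller factors. In RPMI it stood at 140.4, 137 and 144 CPM under DMSO and at 470.5, 468 and 466 CPM under carfilzomib. The carfilzomib libraries were nearly alike, and the fold change was 3.33 (log2 1.74 ± 0.050 SE, n = 3 against 3; edgeR adjusted p = 1.24e-11). In H-1299 it went from 162, 182 and 166 CPM to 461, 441 and 470.5 CPM, a 2.69-fold rise with no overlap (edgeR adjusted p = 2.57e-10). H-929 rose 2.18-fold, from 139, 133 and 133 CPM to 322, 286 and 276 CPM, again with all treated libraries above all controls (edgeR adjusted p = 5.32e-08).

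In CAPAN-2 ZFAND5 rose 1.64-fold from a higher start, 307, 311 and 301 CPM, to 513, 503 and 495 CPM (edgeR adjusted p = 3.14e-08). The rises in H-23 and DLD-1 were small but did not overlap: 207, 209.5 and 207 CPM became 244, 249 and 246 CPM in H-23, and 257, 261 and 277 CPM became 307, 286 and 322 CPM in DLD-1. Their log2 fold changes were 0.24 ± 0.032 (SE) and 0.20 ± 0.052 (SE). The DLD-1 call was lost in each of 4 fits that left out 1 library, namely DMSO replicates 1 and 2 and carfilzomib replicates 1 and 3, with edgeR adjusted p-values of 0.0542, 0.0585, 0.0714 and 0.091. PANC-1, which overlapped CAPAN-2 at the top of the DMSO levels on the scale over all 48 libraries, gave no call. It stood at 316, 348 and 341 CPM against 335, 317 and 302 CPM, which overlap (log2 -0.08, 95% interval -0.17 to 0.02). Without DMSO replicate 1 the gene was called lower in PANC-1, at a log2 fold change of -0.12 (edgeR adjusted p = 0.0462). In RKO the treatments overlapped as well, at 103, 90.9 and 105 CPM against 96.4, 103 and 97.1 CPM.

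ZFAND3 (chr6:37819499-38154624, plus strand), which also carries A20 and AN1 fingers, rose most in RPMI, where it was scarcest. There it stood at 13.4, 11.4 and 12.8 CPM under DMSO and 41, 39.1 and 36.2 CPM under carfilzomib, a fold change of 3.09 (log2 1.63 ± 0.089 SE, n = 3 against 3; edgeR adjusted p = 2.71e-09). H-1299 went from 43.4, 44.6 and 46.3 CPM to 79.3, 81.3 and 77.7 CPM, and CAPAN-2 from 18.2, 17.3 and 17.5 CPM to 29.8, 27.8 and 29.3 CPM. Neither line showed an overlap, and the fold changes were 1.78 and 1.64. H-23 rose 1.27-fold and H-929 1.35-fold. In H-929 the carfilzomib libraries held 61.8, 49.8 and 44.2 CPM against 41, 36.2 and 38.1 CPM, and without carfilzomib replicate 1, the highest, the log2 fold change was 0.26 in place of 0.43 and was no longer called (edgeR adjusted p = 0.0874). DLD-1 went the other way, from 40.3, 38.5 and 41 CPM to 30.3, 29.8 and 34.4 CPM, a fall of 1.27-fold without overlap (log2 -0.35; edgeR adjusted p = 0.00351). RKO and PANC-1 gave log2 values of -0.10 and -0.02, which were not called.

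ZFAND6 (chr15:80059568-80138393, plus strand), the other A20 and AN1 gene with a known ubiquitin-binding protein, rose modestly in 4 lines and fell in 1. In CAPAN-2 it went from 111, 104 and 102 CPM to 142, 151 and 152 CPM, and in H-1299 from 47, 47.1 and 48.8 CPM to 66.5, 64.7 and 62.8 CPM. These rises of 1.40-fold and 1.36-fold had no overlap (edgeR adjusted p = 5.36e-06 and 6.33e-06). H-23 and PANC-1 were called at log2 0.20 and 0.14, the latter a call that was lost in the fit of all libraries (edgeR adjusted p = 0.145) and when any of 4 libraries was left out (DMSO replicates 1 and 3, carfilzomib replicates 1 and 3; edgeR adjusted p = 0.0681 to 0.119). In H-929 the gene fell 1.55-fold, from 150.4, 164 and 161 CPM to 94.0, 116 and 96.2 CPM (log2 -0.64 ± 0.093 SE; edgeR adjusted p = 5.2e-05). All 3 treated H-929 libraries lay below the lowest control. RPMI, the other myeloma line, had overlapping groups at 137, 131 and 132 CPM against 120.3, 136 and 118 CPM, and was not called (log2 -0.10). It was called lower without RPMI carfilzomib replicate 2, at -0.17, with no filter, at -0.14, and in the fit of all libraries, at -0.18 (edgeR adjusted p = 0.0236, 0.0485 and 0.0155).

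ZFAND1, the stress granule member, gave opposite calls in the myeloma lines. In H-929 it fell 1.94-fold, from 73.4, 79.9 and 68.0 CPM under DMSO to 42, 38.9 and 33.2 CPM under carfilzomib (log2 -0.95 ± 0.11 SE, n = 3 against 3; edgeR adjusted p = 7.15e-06). In RPMI it rose 1.90-fold, from 27.2, 26 and 26.7 CPM to 48.6, 52.0 and 50.9 CPM (log2 0.92 ± 0.065 SE; edgeR adjusted p = 3.39e-08). Neither line showed an overlap between its treatments. H-1299 rose from 137, 139.6 and 142 CPM to 194, 184 and 190.1 CPM, or 1.36-fold. DLD-1 fell 1.26-fold, from 73.8, 76.6 and 79.0 CPM to 59.9, 61.5 and 60.7 CPM, without overlap (edgeR adjusted p = 0.000635). CAPAN-2 was called at log2 0.20, a call lost without carfilzomib replicate 3 (edgeR adjusted p = 0.105), and RKO, H-23 and PANC-1 were not called, at 0.02, 0.11 and 0.03. The exons of ZFAND1 share 250 bases, 5.93% of their length, with CHMP4C on the opposite strand. CHMP4C was itself called higher in RPMI (log2 0.73) and lower in DLD-1 (log2 -0.24), and was not called in H-929, where its log2 value was 0.64, opposite in sign to that of ZFAND1. Whether counting used the strand is not given in the sources used here, so reads in the shared stretch cannot be told apart. The same limit holds for ZFAND2A, which shares 111 bases, 4.87% of its exons, with the antisense gene AC091729.3, not a row of the matrix.

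ZFAND2B (chr2:219195237-219209651, plus strand), the membrane-anchored relative of ZFAND2A, was called in 4 lines, in both directions. It rose 1.61-fold in RPMI, from 14.6, 17.9 and 18.5 CPM to 27.5, 30.3 and 24.8 CPM, without overlap (log2 0.68 ± 0.11 SE; edgeR adjusted p = 6.84e-05). In H-929 it was called at log2 0.44, from 15.2, 15.3 and 13.7 CPM to 22.1, 17.6 and 20.2 CPM, but the call was lost with the Wald test of DESeq2 (adjusted p = 0.0711), with no filter (edgeR adjusted p = 0.0893) and when any library but carfilzomib replicate 2 was left out (edgeR adjusted p = 0.0544 to 0.111). Both lung lines fell. H-23 went from 32.7, 30.8 and 28.7 CPM to 24.4, 19.9 and 24.1 CPM, and H-1299 from 27.1, 28.9 and 25.8 CPM to 20.8, 22.3 and 23.7 CPM. The falls were 1.35-fold and 1.22-fold and the groups did not overlap (edgeR adjusted p = 0.000725 and 0.00493). In H-1299, the line in which ZFAND2A rose most, the paralogs moved in opposite directions. RKO, DLD-1, PANC-1 and CAPAN-2 gave no call, with log2 values from -0.13 to 0.06.

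ZFAND4 (chr10:45615501-45672780, minus strand) was present in some lines and nearly absent in others. In RKO all 6 libraries held 0 counts, which allows a level of up to 0.133 to 0.237 CPM per library (3 counts of each total, for counting error only). In RPMI the 6 libraries held 1 to 6 counts, and neither line was tested. Elsewhere the gene was called in 1 line. In H-1299 it went from 19.7, 20.2 and 18.7 CPM to 24.8, 22.5 and 23.4 CPM without overlap (log2 0.27 ± 0.074 SE; edgeR adjusted p = 0.007). In the fit of all libraries the value was 0.20 and was not called (edgeR adjusted p = 0.265), nor was it with library totals in place of TMM, at 0.16 (adjusted p = 0.082); that scaling lowers the median of all H-1299 genes by 0.11. In H-23 and PANC-1 the treated libraries lay below all controls, at 14.1, 13 and 14.9 CPM against 17.2, 16.1 and 15.5 CPM, and at 35.7, 36.8 and 34.8 CPM against 39.1, 40.2 and 37.2 CPM. Neither was called (edgeR adjusted p = 0.0538 and 0.0763). H-23 passed the threshold without its carfilzomib replicate 3, at a log2 value of -0.28, and at -0.22 to -0.25 with library totals, with either other filter and without rows that share an identifier (edgeR adjusted p = 0.0336 to 0.0403 in these 5 fits). CAPAN-2 was called higher without carfilzomib replicate 1, at log2 0.33 (edgeR adjusted p = 0.0347), and DLD-1 and H-929 were not called, at -0.23 and -0.22.

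A single fit of all 48 libraries gave the average response over the 8 lines and tested whether the lines differ. Its scaling over all libraries gives other values for a line than the fits above, as for ZFAND1 in H-929, at -1.12 in place of -0.95. The differences within tumour types below come from this fit too. On average ZFAND2A rose by 1.59 ± 0.04 (SE) on the log2 scale, ZFAND5 by 0.63 ± 0.020 and ZFAND3 by 0.39 ± 0.028 (edgeR, Benjamini-Hochberg adjusted p = 7.37e-33, 1.8e-29 and 1.37e-16). Thus 3 of 6 members were called higher and 0 lower, where 19.8% of 22309 genes were higher and 23.9% lower. ZFAND6, ZFAND1 and ZFAND2B averaged 0.04, 0.01 and -0.00 and were not called (edgeR adjusted p = 0.134, 0.821 and 1.00). The means of the per-line values of ZFAND6, ZFAND1 and ZFAND2B were 0.08, 0.06 and 0.04. ZFAND4 has no average, since its RKO groups are at 0. RPMI weighed most on ZFAND3, whose average without that line was 0.22. These errors come from replicates of the same group. With the 8 lines as the units (limma on the per-line fold changes), 0 of the 6 members passed; the adjusted p was 0.0906 for ZFAND2A, 0.117 for ZFAND5 and 0.206 for ZFAND3, and these 3 had unadjusted p-values under 0.05, as did 2755 of 11622 genes (23.7%). Only 102 of 11622 genes passed that test.

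The response of all 6 tested members differed between the lines, as did that of 67.7% of all genes. The F value of this difference was largest for ZFAND2A and ZFAND5, at 204 and 139, and smallest for ZFAND2B, at 11.4 (edgeR adjusted p = 6.2e-28, 5.38e-25 and 1.33e-07). Lines of the same tumour type also differed. In the colon pair, DLD-1 minus RKO, 1 of 6 members differed, ZFAND1 with a log2 difference of -0.36 ± 0.093 (SE), against 4.04% of all genes. For ZFAND2A this difference was 0.26 with a 95% interval of -0.11 to 0.62, and for ZFAND5 it was 0.21 with an interval of 0.05 to 0.38 that did not survive the adjustment over all genes (edgeR adjusted p = 0.14).

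In the lung pair, H-1299 minus H-23, 4 of 7 members differed, against 30.8% of all genes. The response of ZFAND2A was larger in H-1299 by 3.09 ± 0.13 (SE) on the log2 scale, that of ZFAND5 by 1.13 ± 0.077, that of ZFAND3 by 0.43 and that of ZFAND1 by 0.28. In the pancreatic pair, CAPAN-2 minus PANC-1, 4 of 7 differed, against 24.9%: ZFAND2A by 1.87 ± 0.14 (SE), ZFAND5 by 0.82 ± 0.076, ZFAND3 by 0.76 and ZFAND6 by 0.37, each larger in CAPAN-2. In the myeloma pair, RPMI minus H-929, 5 of 7 differed, against 40.5%. The 7 include ZFAND4, at 0.38 ± 0.65 (SE), whose RPMI libraries held 1 to 6 counts, too few to show a difference. ZFAND1 differed by 1.96 ± 0.11 (SE), ZFAND2A by 1.87 ± 0.18, ZFAND3 by 1.27, ZFAND5 by 0.69 and ZFAND6 by 0.62, each with the higher value in RPMI. The members called in all 3 of these pairs were ZFAND2A, ZFAND3 and ZFAND5. For ZFAND2B the pair differences were 0.18, 0.09, 0.03 and 0.33, with 95% intervals of -0.13 to 0.49, -0.18 to 0.37, -0.25 to 0.31 and 0.02 to 0.63, and none was called.

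Under DMSO the level of all 6 tested members differed between lines, as did that of 97.6% of all genes. The levels that follow are CPM scaled over all 48 libraries, which shifts them somewhat from the values per line. ZFAND1 ranged widest among the members present in every line, from 13.6 ± 1.05 CPM in H-23 to 151 ± 1.75 CPM in H-1299 (SD, n = 3), an 11.2-fold range. In order below H-1299 came RKO at 117 CPM, H-929 at 79.4, DLD-1 at 74.7, CAPAN-2 at 70.1, PANC-1 at 46.2 and RPMI at 30.01, of which only H-929 and DLD-1 overlapped as neighbours. ZFAND4 was highest in PANC-1 (38.5 ± 1.46 CPM), then H-1299 (21.2), H-23 (14.7), CAPAN-2 (9.45), H-929 (3.62), DLD-1 (2.09), RPMI (0.14) and RKO (0), with no neighbours overlapping. RPMI and RKO cannot be put in order, since 0 counts in the RKO libraries allow up to 0.133 to 0.237 CPM.

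ZFAND2A had low and fairly even DMSO levels, from 18.9 ± 1.83 CPM in H-23 through 18.1 in CAPAN-2, 15.6 in H-1299, 15.4 in RPMI, 12.1 in PANC-1, 10.4 in DLD-1 and 7.86 in RKO to 6.62 ± 1.11 CPM in H-929. The neighbours H-23 and CAPAN-2, H-1299 and RPMI, and PANC-1 and DLD-1 overlapped. Its range over lines was 2.85-fold under DMSO and 28.3-fold under carfilzomib. ZFAND2B ran from 29.6 CPM in H-1299 through 27.7 in H-23, 26 in DLD-1, 22.6 in PANC-1, 19.2 in RPMI, 15.9 in CAPAN-2 and 15.9 in H-929 to 10.2 in RKO, with overlaps within the first 3 and among RPMI, CAPAN-2 and H-929 as neighbours.

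ZFAND5 was highest in PANC-1 (332 ± 18 CPM) and CAPAN-2 (331), which overlapped, followed by DLD-1 (259), H-23 (187), H-1299 (185), RPMI (158), H-929 (145) and RKO (89.4 ± 7.93), where only H-23 and H-1299 overlapped. ZFAND6 was highest in the myeloma lines, at 171 ± 7.86 CPM in H-929 and 150.4 in RPMI, and went down through CAPAN-2 (114), PANC-1 (98.7), DLD-1 (79.9), RKO (56.8) and H-1299 (51.7) to H-23 (42.7), with an overlap only between RKO and H-1299. ZFAND3 was highest in RKO (69.2 ± 5.64 CPM), with PANC-1 (49.1) and H-1299 (48.5) overlapping, then H-929 (41.4), DLD-1 (39) and H-23 (38.7) overlapping, and CAPAN-2 (19.1) and RPMI (14.1) apart at the low end. Over the 8 lines, the DMSO level of ZFAND3 (log scale) and its response had a Pearson r of -0.75, those of ZFAND6 -0.59, ZFAND2B -0.31, ZFAND1 -0.23, ZFAND5 -0.16 and ZFAND2A 0.44; these are descriptions over 8 points, and level and response share the DMSO libraries.

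**Figure D3:**
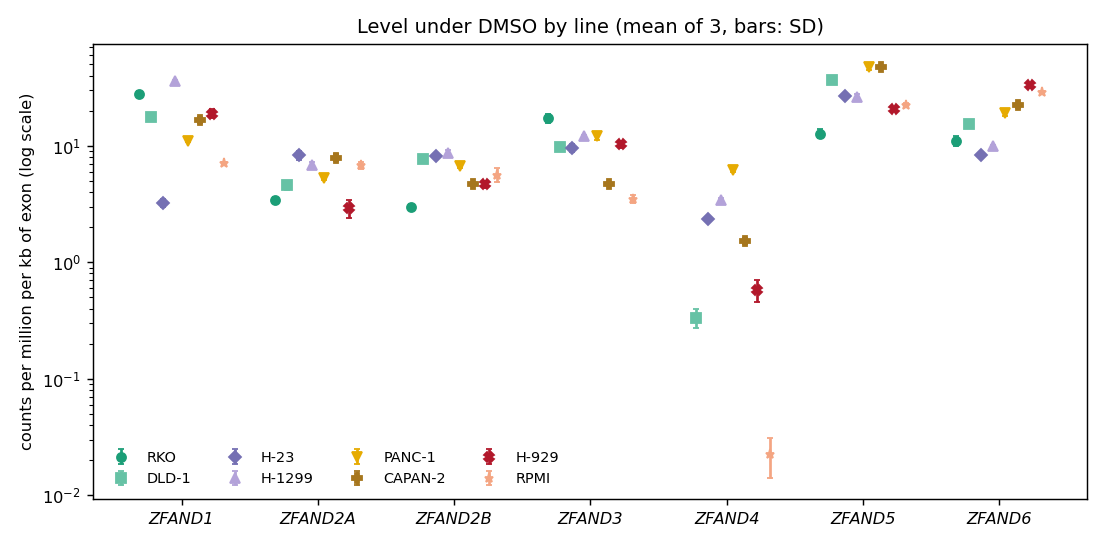
Level of each ZFAND gene under DMSO in CPM per kb of exon (log scale), with 1 symbol a line, the mean of 3 libraries and the SD; ZFAND4 in RKO is at 0 and not drawn. ZFAND4 spreads most, from 0.0225 in RPMI (2 to 5 counts a library) to 6.18 in PANC-1, and ZFAND5 lies between 12.7 in RKO and 47.1 in PANC-1.

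To compare members with each other, CPM were divided by exon length in kb (GENCODE release 29). Under DMSO the most abundant member per kb was ZFAND5 in DLD-1, H-23, PANC-1 and CAPAN-2, ZFAND1 in RKO and H-1299, and ZFAND6 in H-929 and RPMI. The make-up of the family was different under carfilzomib. In H-1299 ZFAND2A went from 6.65% ± 0.417 (SD, n = 3) of the summed family level to 37.5% ± 0.577, and in RPMI from 9.06% ± 0.712 to 36.8% ± 4.23, which made it the most abundant member in both. In CAPAN-2 it went from 7.56% ± 0.366 to 23% ± 1.32 and took the place after ZFAND5. The summed level of the 7 genes rose from 103 to 252 CPM per kb in H-1299, from 74.7 to 204 in RPMI and from 105 to 186 in CAPAN-2, so the share of other members could shrink while their level rose: that of ZFAND1 in H-1299 went from 34.8% to 18.4%.

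In H-929 the sums on the scale over all 48 libraries were close, at 91.0 ± 2.55 CPM per kb under DMSO and 95.2 ± 6.37 under carfilzomib. That scale gives lower H-929 responses than the fit per line, such as log2 0.96 against 1.12 for ZFAND5 and -1.12 against -0.95 for ZFAND1. The closeness of the sums therefore depends on the scaling. The parts of the sum were not close. ZFAND5 went from 22.7% to 42.1% of the sum and ZFAND2A from 3.19% to 9.31%. ZFAND6 went from 36.4% to 20.1% and ZFAND1 from 20.7% to 9.10%. In RKO and PANC-1 neither the sum (75.2 and 74.7, 108 and 109 CPM per kb) nor the leading member differed much. These shares are descriptions of the levels tested above and carry no test of their own.

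**Figure D4:**
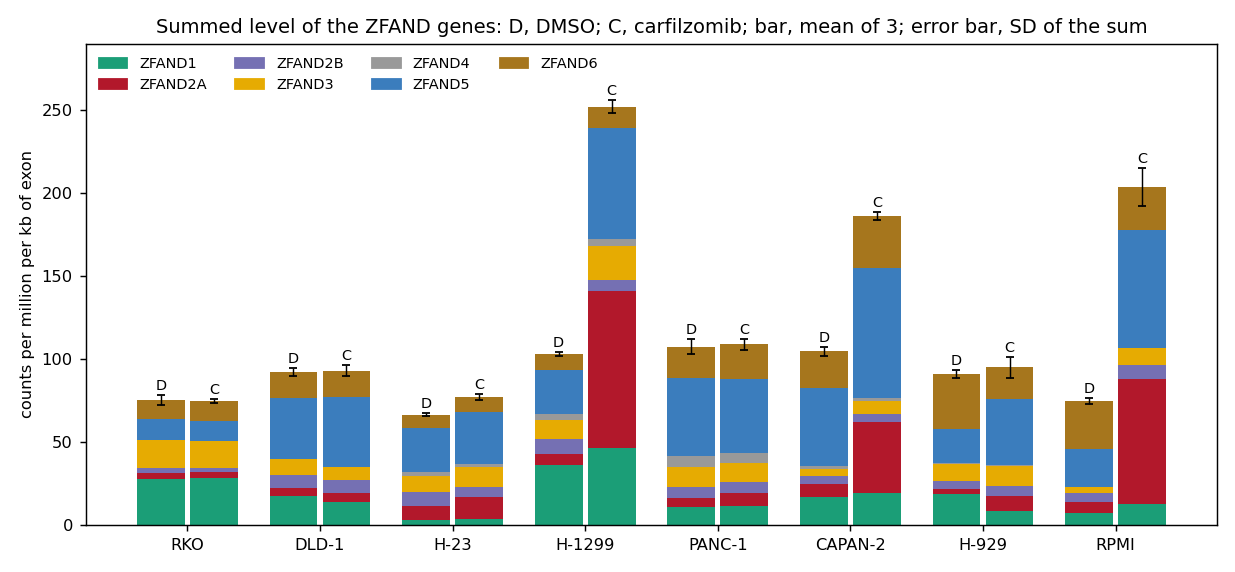
Summed level of the 7 ZFAND genes in CPM per kb of exon, stacked by gene, for DMSO (D) and carfilzomib (C) in each line; bars are means of 3 libraries and the error bar is the SD of the sum. The red segment, ZFAND2A, grows from 6.65% to 37.5% of the bar in H-1299 and from 9.06% to 36.8% in RPMI. The bars of H-929 have similar heights on the scale over all 48 libraries, 91.0 and 95.2, and different parts.

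Across the 8 lines the responses of ZFAND2A, ZFAND3 and ZFAND5 ran together. The Pearson r of their log2 fold changes was 0.93 between ZFAND2A and ZFAND5, 0.89 between ZFAND2A and ZFAND3 and 0.88 between ZFAND3 and ZFAND5, over 8 lines whose libraries the members share. ZFAND6 was unlike them, with r of 0.15, 0.02 and -0.18 to ZFAND2A, ZFAND3 and ZFAND5, and its r to ZFAND2B was -0.67. Many genes follow such a pattern over 8 points. Of 10956 genes searched, 280 had an r over 0.9 to ZFAND2A, led by ZRSR2 (0.99), a splicing factor, PLEKHO2 (0.99) and HUWE1 (0.99), a ubiquitin ligase. The closest to ZFAND5 were TTC9C, SLC26A11 and ZMYM5 (0.99 each; 219 genes over 0.9), and to ZFAND3 ZCCHC8 (0.99), SBDSP1 (0.99) and KCMF1 (0.98), a ubiquitin ligase. Among those closest to ZFAND6 were SOAT1 and QTRT2 (0.99 each), and the closest to ZFAND1 were PPIE (0.98), IFNGR1 (0.97) and FIP1L1 (0.97). ZFAND2B was closest to EML6 (0.97), SNORD14C (0.96) and SLC35E4 (0.96), with 54 genes over 0.9.

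The levels of ZFAND2A were set beside those of heat shock genes, since HSF1 is its known activator. The row named HSF1 held 0 or 1 counts in every library and shares its identifier with another row, so no level of HSF1 is given. The summed rows of HSPA1A and HSPA1B, which encode the inducible HSP70 chaperone and are near-identical, were called higher in H-929 (log2 9.60), RPMI (7.75), H-1299 (6.14), CAPAN-2 (3.26) and H-23 (2.13), 5 lines in which ZFAND2A was also called higher. The order of the fold changes differed: H-929 had the largest HSPA1 rise but only the fourth largest of ZFAND2A. That HSPA1 rise started from a mean of only 0.52 CPM under DMSO, where 3 counts of a library are 0.16 to 0.20 CPM. Under carfilzomib the HSPA1 sum stood at 421 CPM in H-929, 485 CPM in H-1299 and 508 CPM in RPMI. These levels are each scaled within the line and give no order of the lines. In PANC-1 ZFAND2A was called at log2 0.58 while the HSPA1 sum was not (log2 -0.14 ± 0.35 SE; edgeR adjusted p = 0.788). A further inducible HSP70 gene, HSPA6, passed the filter in 7 lines and was called higher in each of them, PANC-1 (log2 2.50) and DLD-1 (2.18) included. In RKO and DLD-1 neither ZFAND2A nor the HSPA1 sum was called.

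**Figure D5:**
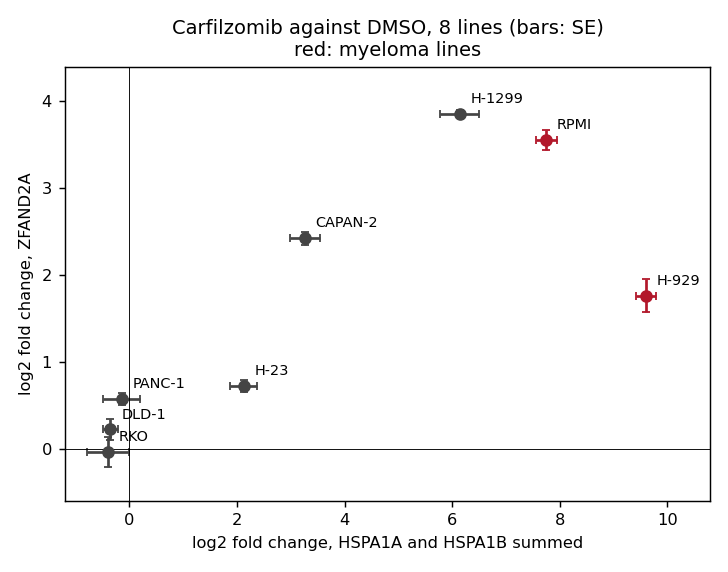
Log2 fold change of ZFAND2A (y axis) against that of HSPA1A and HSPA1B summed (x axis), carfilzomib minus DMSO, 1 point a line with SE bars; the myeloma lines are red. H-1299 and RPMI have the highest ZFAND2A values, 3.85 and 3.55, H-929 lies farthest right at 9.60, and PANC-1 lies at -0.14 on the x axis with ZFAND2A at 0.58.

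Genes around the family were counted in lists chosen for their function, to be read against the 20.8% of tests of all genes called higher and the 21.1% called lower over the 8 lines. Of 256 tests of proteasome subunits over the 8 lines, 206 (80.5%) were called higher and 4 lower, with the median log2 fold change of the list from -0.03 in RKO to 1.27 in CAPAN-2. PSMD2 and PSMC6, subunits of the regulatory particle, averaged 0.86 and 0.83, and PSMA3 and PSMD7 averaged 0.24 and 0.09. In DLD-1 all 32 tested subunits were higher (median 0.53), against 10.9% of all genes there, beside no call of ZFAND2A. In PANC-1 all 32 were higher (median 0.62), against 20.5% of all genes. ZFAND2A was called there at log2 0.58 and ZFAND5 was not called. In RKO, where no member was called, 0 of 32 subunits were higher and 2 were lower. As 3.62% of all RKO genes were called higher and 5.28% lower, both counts are near the background. The counts of every list keep rows that share an identifier with another row, whose values are less certain. Such a row is PSMC4, called at log2 5.01 in DLD-1, 2.10 in PANC-1 and -3.30 in RKO, and included in these subunit counts.

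Other ubiquitin shuttle factors were called higher in 30 of 72 tests (41.7%) and lower in 14 (19.4%), the latter near the share of all genes, led by MIDN, which carries substrates to the proteasome without ubiquitin (average 0.52), with the shuttle protease DDI2 lowest (-0.31). Among proteins that work with ZFAND members, 38 of 99 tests (38.4%) were higher and 12 (12.1%) lower, the latter under the share of all genes. BAG6, whose row shares its identifier with another, gave the only call of this list in RKO (log2 4.06). The VCP adaptors UFD1 and NPLOC4 averaged 0.91 and 0.70 and were each higher in 7 lines, and the stress granule proteins G3BP2 and G3BP1 averaged -0.23 and -0.24. In H-929, where ZFAND1 fell, G3BP1 and G3BP2 were also called lower, at -0.58 and -1.10, and in RPMI, where ZFAND1 rose, they were lower too, at -0.46 and -0.51.

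Heat shock chaperones were higher in 89 of 163 tests (54.6%) and lower in 29 (17.8%), a share lower that is little under that of all genes. The highest averages were those of HSPA6 (4.60) and BAG3 (1.28) and the lowest those of HSPA4 (0.04) and FKBP4 (-0.07). CRYAB, a small heat shock protein, was called higher in 2 of the 4 lines where it was tested, and it is left out of this order because a group of it held 0 counts in every library. In RKO 0 of 19 were higher and 11 lower, against 3.62% and 5.28% of all genes there. In DLD-1 2 of 21 were higher and 10 lower, against 10.9% and 12.1%. The counts higher in both lines, which had no ZFAND2A call, are near the background, and the counts lower are above it. In H-1299 19 of 20 were higher, against 29.8%. H-23 had 10 of 20 higher and PANC-1 12 of 21, against 17.7% and 20.5%. CAPAN-2 and RPMI each had 16 of 21 higher, against 25.7% and 31.3%, and H-929 14 of 20, against 26.4%. The 19 in H-1299 include CHORDC1 (log2 2.61), whose row shares its identifier with another. Genes of metal and oxidative stress were higher in 47 of 72 tests (65.3%) and lower in 10 (13.9%), with HMOX1, the haem oxygenase, at an average of 1.96 and the metallothionein MT2A at -0.11. HMOX1 was called higher in RKO (log2 0.67), where no ZFAND gene was. Other genes with an A20 or AN1 finger were higher in 16 of 32 tests (50%) and lower in 2 (6.25%). The helicase IGHMBP2, with an AN1 finger, averaged 0.48 and was called in 5 lines (RPMI, H-929, CAPAN-2, H-1299 and H-23), and RABGEF1, with an A20 finger, averaged 0.12. Over all genes the median log2 fold change per line was -0.02 to 0.03.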

How the data were processed

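The authors deposited raw counts per gene for 48 libraries, 3 for each of 16 groups, in 1 matrix with symbols and Ensembl identifiers. Per the labels' protocols, libraries were stranded and made from total RNA. The submitters' processing notes name bcl2fastq 2.19, FastQC, Trimmomatic, HISAT2, DESeq2 and hg38. The counting program, its annotation and its use of strand are not given in the sources used here, and without molecular identifiers a read is not always a separate molecule.

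The 6 libraries of a line were compared in edgeR 4.0.16 (R 4.3.3; quasi-likelihood F test) after TMM scaling and the filterByExpr filter, with Benjamini-Hochberg adjustment over all genes and a threshold of 0.05. A fit of all 48 libraries with the trended dispersion gave averages, differences between lines and between the lines of a tumour type, and DMSO levels. SE is the log2 value over the root of F. Alternatives were other scalings and filters, DESeq2 1.42.0, limma 3.58.1 on lines as units, a replicate block, and fits that left out 1 library, 1 replicate number or 1 line.

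Exon lengths came from GENCODE release 29, which matched 87.6% of the rows, and promoter windows from RefSeq; neither need match the authors' annotation. Within each group the replicates varied beyond sampling noise, with a chi-square of 3.33 or more per degree of freedom, and all were kept. Same-numbered DMSO and carfilzomib libraries did not deviate together.

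The text names all 7 members, HSF1, the HSPA1A and HSPA1B sum (8 rows), from each list the genes with the highest and lowest averages (2 and 2, or 1 and 1 for lists under 10 genes, without rows that share an identifier or have a group at 0 counts, the latter a change to the rule made after the values were seen, which leaves out CRYAB), and for each member the 3 genes with the most similar fold changes, 1 of which is not reported here. PSMC4, BAG6 and CHORDC1 are named as well, as called rows that share an identifier and were kept in the list counts. The members and lists were chosen with earlier results of these data known.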

Additional observations from a re-analysis of the deposited data

Results flagged for a closer look

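For 6 members the response to carfilzomib differed between the 8 lines by the test of the difference itself in edgeR. The F value over the lines was 204 for ZFAND2A, 139 for ZFAND5, 59.6 for ZFAND1, 54.7 for ZFAND3, 38.8 for ZFAND6 and 11.4 for ZFAND2B. ZFAND1 is the member with calls in both directions among lines of 1 tumour type, at a log2 fold change of -0.95 in H-929 and 0.92 in RPMI. Since 67.7% of all genes differed between lines by this test, the result is not particular to the family.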

How the results depend on the processing

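The count of member calls per line, 27 higher and 6 lower, was 22 to 27 higher and 6 to 8 lower over 11 alternative fits, and no called member changed sign in any of them. With a replicate block the counts were 27 and 6; the replicate numbers did not pair the libraries (r of same-numbered libraries at most 0.049), although in H-23 and PANC-1 each carfilzomib library deviated most like its own number. Leaving out 1 library at a time gave 15 lost and 4 gained calls in 324 fits of a member, and leaving out a replicate number from both treatments gave 12 lost and 2 gained in 162. The calls of ZFAND3 in DLD-1, ZFAND4 in H-1299 and ZFAND6 in H-23 were lost with a replicate number left out but with no single library left out. Members with an average effect numbered 3, but 5 without H-929 (ZFAND1 0.17 and ZFAND6 0.16 were added), 6 without RPMI (ZFAND1 -0.11, ZFAND2B -0.09 and ZFAND6 0.07 were added) and 0 with lines as units in limma; DESeq2's size factors, library totals and the filter at a mean of 50 counts each gave 4. The differences between lines held for 6 of 6 members under all alternatives, and those within tumour types numbered 14, with 11 to 16 over the alternatives. Of the lists, the relatives with an A20 or AN1 finger had 2 calls lower, or 1 with library totals. ZFAND4 was at 0 to 6 counts in RKO and RPMI, so depth allows no informative test there. Doses set per line, 1 time point and 3 cultures a group limit all comparisons.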

Other observations

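In the carfilzomib libraries the line with the highest ZFAND5 level was CAPAN-2, at 551 CPM on the scale over all libraries. Under DMSO PANC-1 (332 CPM) and CAPAN-2 (331 CPM) overlapped at the top. The line with the highest ZFAND6 level was likewise CAPAN-2, at 162 CPM, in place of H-929, and that with the highest ZFAND3 level was H-1299, at 82.1 CPM, in place of RKO. ZFAND1 kept its order at both ends, with H-23 lowest (14.4 CPM) and H-1299 highest (196 CPM). The pseudogene row ZFAND6P1 held 0 counts in every library.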
